A study of Homo sapiens with 6 samples.

Results

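In brain-metastatic MDA231-BrM2 breast cancer cells, 207 of 6992 genes with at least 200 reads over cassette exon events had far fewer of these reads in cells expressing RBM47 than in control cells. The 207 genes were chosen by this measured value and by nothing else. For each gene symbol the reads of both isoforms of all cassette exon events were summed per group, the log2 ratio of the RBM47 sum over the control sum was taken, and the median over the 6992 genes (-0.21) was subtracted. A gene became a member at a centred log2 ratio of -1.3 or lower. MBNL1, MBNL2 and QKI, which encode splicing regulators, were left out by name. A cassette exon is an exon that is either kept between its neighbouring exons or skipped, and an event is 1 such choice.

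The 3 control samples were MDA-MB-231-BrM2a cells, a non-clonal derivative of the triple negative MDA-MB-231 line, with the empty vector pRetroX-Tight-Pur. The 3 RBM47 samples were a clone of the same derivative (WT10) with the same vector carrying Flag-tagged wild type RBM47, under a promoter that doxycycline turns on. All 6 samples received doxycycline at 10 ng/ml for 3 days. Because every RBM47 sample came from 1 clone, the effects of RBM47 and of the clone cannot be told apart. The labels do not say how separately the samples of a group were grown, so the p-values below measure the spread between these samples, which may be technical.

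Reads were given only as sums over the 3 samples of a group, 26470301 in control and 24092775 in RBM47 cells. The reads of single samples are unknown, and no fold change below has a replicate test. Of 6 mesenchymal genes that mark this line, 5 passed the read minimum: VIM, CD44, AXL, ZEB1 and MSN. All 5 were below the median ratio of all genes. They ran from -0.34 in VIM, -0.70 in CD44, -0.75 in MSN and -0.85 in AXL to -1.53 in ZEB1. ZEB1 is itself a member, and these 5 markers moved the same way as the members. In the mesenchymal list used further on, 14 of 21 genes were below that median, and the highest was at 1.12. The part of these markers in the results was not tested. Of 6 epithelial genes (CDH1, EPCAM, ESRP1, GRHL2, RAB25 and ERBB3), 0 passed it (1 was in the table). RBM47 itself had 0 events, so the transgene could not be checked here. Among events with a mean inclusion rate of 0.1 to 0.9, RBM47 replicate 2 stood apart: 14.7% of its rates were 0 or 1, while the remaining 5 samples had 6.09% to 7.61%. Over the 135 member events in that range the share was 28.9% against 5.93% to 11.9%. Results on inclusion rates are therefore also given without that sample.

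RNA-binding proteins of the RBM47 kind attach to transcripts in the nucleus and can act on splicing and on the stability of the messenger RNA. Reads over all events of a gene follow the level of its transcripts, but not that alone. A transcript that includes the exon offers both of its junctions and the exon body, and a transcript that skips it offers a single junction, so a lower inclusion also lowers the sum. The inclusion rate follows the mix of isoforms. In bulk RNA, fewer cells with a transcript and less of it per cell cannot be told apart.

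The middle exons of the events with the most reads are shown first for 5 of the 25 members with the lowest ratio, to show what was counted. Exon bases are in capitals, and the 20 intron bases on each side are in lower case, 5′ to 3′ on the gene's strand in GRCh37. The exons were matched by gene and by the distance between the outer ends of the event.

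FAM105A (chr5:14601460-14601551, + strand): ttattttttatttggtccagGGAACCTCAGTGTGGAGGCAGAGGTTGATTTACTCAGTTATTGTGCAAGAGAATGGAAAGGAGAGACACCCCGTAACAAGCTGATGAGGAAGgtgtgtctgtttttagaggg
EVL (chr14:100604077-100604139, + strand): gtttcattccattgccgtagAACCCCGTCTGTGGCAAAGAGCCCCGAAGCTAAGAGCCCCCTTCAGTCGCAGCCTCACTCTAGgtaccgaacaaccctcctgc
PHF6 (chrX:133512035-133512136, + strand): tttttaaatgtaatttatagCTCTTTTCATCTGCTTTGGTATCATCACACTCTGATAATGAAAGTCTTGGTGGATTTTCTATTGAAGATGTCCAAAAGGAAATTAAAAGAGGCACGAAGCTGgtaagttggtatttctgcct
SUZ12 (chr17:30274636-30274704, + strand): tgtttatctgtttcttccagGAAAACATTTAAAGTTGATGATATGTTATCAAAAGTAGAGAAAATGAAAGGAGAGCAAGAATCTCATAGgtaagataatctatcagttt
VPS13A (chr9:79898271-79898387, + strand): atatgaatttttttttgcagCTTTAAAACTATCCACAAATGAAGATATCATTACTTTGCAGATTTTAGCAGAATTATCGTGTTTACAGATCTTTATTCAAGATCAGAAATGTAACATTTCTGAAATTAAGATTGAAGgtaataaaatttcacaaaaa

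All 5 are coding exons, and they run from 27.4% GC in VPS13A to 60.3% in EVL. A second set is shown for exons whose inclusion passed the study criteria, described further on. ARHGEF12, KIF21A, LTBP1, MALT1, NAV2 and SUCO each kept the reading frame, with lengths of 57, 21, 126, 33, 45 and 21 bases.

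NAV2 (chr11:20072835-20072879, + strand): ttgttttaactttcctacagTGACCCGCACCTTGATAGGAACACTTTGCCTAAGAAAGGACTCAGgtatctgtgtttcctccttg
ARHGEF12 (chr11:120280103-120280159, + strand): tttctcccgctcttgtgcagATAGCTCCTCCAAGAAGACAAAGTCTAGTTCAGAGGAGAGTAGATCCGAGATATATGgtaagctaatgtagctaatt
KIF21A (chr12:39724044-39724064, - strand): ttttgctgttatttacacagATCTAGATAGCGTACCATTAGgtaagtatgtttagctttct
MALT1 (chr18:56378153-56378185, + strand): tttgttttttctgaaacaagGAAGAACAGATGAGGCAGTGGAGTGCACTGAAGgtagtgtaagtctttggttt
SUCO (chr1:172546679-172546699, + strand): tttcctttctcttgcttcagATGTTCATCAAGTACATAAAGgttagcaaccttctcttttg
LTBP1 (chr2:33567905-33568030, + strand): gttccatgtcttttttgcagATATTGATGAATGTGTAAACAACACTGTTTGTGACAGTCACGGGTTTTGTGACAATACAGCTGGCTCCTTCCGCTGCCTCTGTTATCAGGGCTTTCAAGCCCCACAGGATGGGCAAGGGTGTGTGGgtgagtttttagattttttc

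The members held 234106 reads in control and 65530 in RBM47 cells. That was 0.884% of all control reads and 0.272% of all RBM47 reads. In the median member there were 485 control reads and 138 RBM47 reads, and a median of 29.2% of the control reads remained (from 10.9% to 35.0%). The median centred log2 ratio was -1.57, which is 2.96-fold lower. Of the 207, 35 were at -2 or lower, 61 between -2 and -1.6, and 111 above -1.6. The share of all genes at -1.3 or lower was 2.99% (209 of 6992, MBNL1 and QKI included), while 62 genes were at +1.3 or higher. These values chose the members and carry no test.

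**Figure D1:**
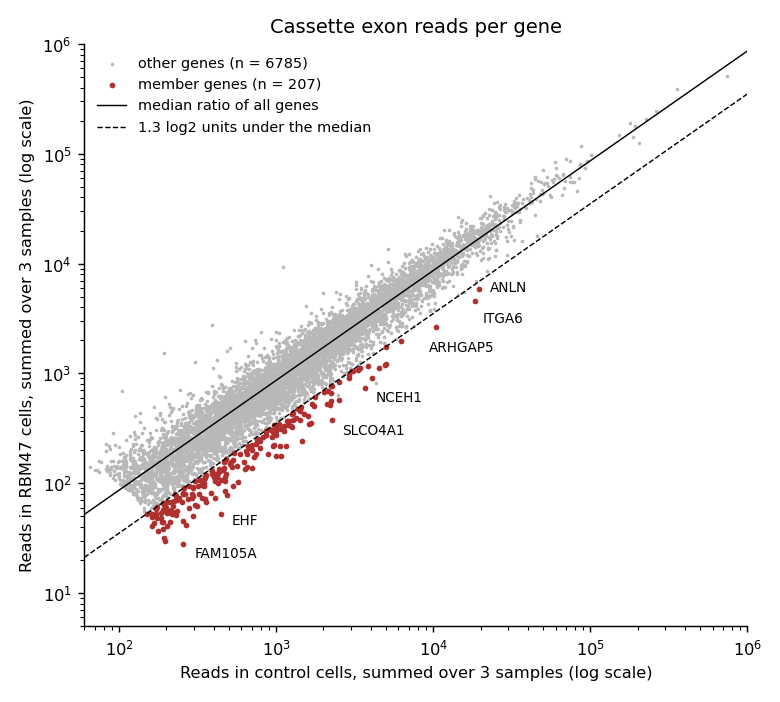
Reads over cassette exon events per gene in control cells (horizontal) and RBM47 cells (vertical), each summed over 3 samples, both axes on log scales. The 207 members (red) lie under the dashed line, 1.3 log2 units below the median ratio of all 6992 genes (solid line), from FAM105A with 28 RBM47 reads to ANLN with 5886.

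Near the threshold the members were FERMT1 (175 control and 61 RBM47 reads, centred log2 ratio -1.312), ATP13A3 (962 and 336, -1.309) and NT5DC3 (226 and 79, -1.307). Just outside were TMPO (1845 and 649, -1.298), TBC1D23 (1389 and 489, -1.297) and RB1 (386 and 136, -1.296). These 6 genes differ by less than their counting error. For the event with the most reads in each member, a 95% Clopper-Pearson interval of the ratio was wholly under -1.3 in 89 members. These reads are part of the sum that chose the members, or all of it where a gene has 1 event. The interval covers counting error only, since reads are not independent molecules.

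The lowest ratio belonged to FAM105A, with 257 control reads and 28 RBM47 reads (centred log2 ratio -2.99, counting interval -3.61 to -2.42). EHF, an epithelial transcription factor of the ETS family, followed with 443 and 52 reads (-2.88, -3.33 to -2.46). In both genes a single event carried all reads, and after centring they were 7.94-fold and 7.37-fold lower. EPHA4, an ephrin receptor tyrosine kinase, had 196 and 30 reads (-2.50). The bicarbonate transporter SLC4A7 had 268 and 42 (-2.46), and ARL6IP6 had 485 and 78 (-2.43). The organic anion transporter SLCO4A1 stood out by its depth, with 2256 and 373 reads over 3 events (-2.39). Its 3 events lay close together, from -2.48 to -2.28.

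The 25 lowest members are grouped below by known role only to order them, after their values were seen and with no count over all genes. CEP170, a centrosome protein, had 1466 and 243 reads (-2.38). NCKAP1, a subunit of the WAVE complex that drives branched actin growth, had 1070 and 178 (-2.38). EVL, of the Ena/VASP family of actin regulators, had 295 and 50 (-2.35). All 3 genes were lower in each of their events. NAV3, a microtubule-associated neuron navigator protein, had 475 and 85 reads (-2.27). ARHGEF12, a guanine nucleotide exchange factor, had 357 and 67 (-2.20), and ARHGAP29, a GTPase-activating protein, had 1153 and 219 (-2.19). The ratios of these last genes were nearly the same.

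Genes of nuclear proteins follow. SUZ12, a core subunit of the Polycomb repressive complex PRC2, had 532 and 94 reads (-2.29). SCML1, a Polycomb-related protein, had 193 and 32 (-2.38), and RIF1, which controls replication timing and the choice of DNA break repair, had 700 and 138 (-2.13). PHF6, a chromatin-binding zinc finger protein, had 350 and 72 (-2.07). TEAD1, the DNA-binding partner of YAP in the Hippo pathway, had 1063 and 219 (-2.07), and MYBL1, a transcription factor of the MYB family, had 311 and 62 (-2.12). The reads of these 6 genes in RBM47 cells were 16.6% to 20.6% of the control reads.

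The rest of the lowest 25 had various other roles. VPS13A, a lipid transfer protein, had 257 and 45 reads (-2.30), SCAMP1, of secretory carrier membranes, 572 and 102 (-2.28), and EXOC5, a subunit of the exocyst, 191 and 38 (-2.12). BMPER, a secreted regulator of BMP signalling, had 408 and 73 (-2.27). SNCAIP, which binds alpha-synuclein, had 1001 and 178 over 5 events (-2.28). NCEH1, a cholesterol ester hydrolase, had 3668 and 740 (-2.10), the most reads of the 25. GPD2, the mitochondrial glycerol-3-phosphate dehydrogenase, had 201 and 41 (-2.08).

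**Figure D2:**
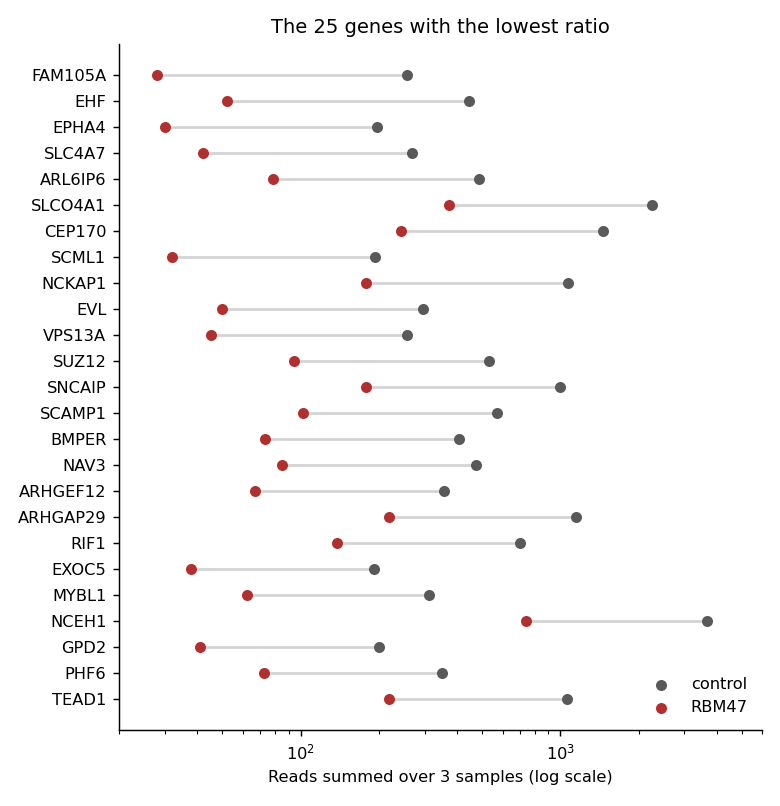
Reads summed over 3 samples in control (grey) and RBM47 cells (red) for the 25 members with the lowest ratio, on a log scale, ordered from the lowest ratio at the top. Control sums run from 191 reads (EXOC5) to 3668 (NCEH1), and the RBM47 sum lies to the left in each of the 25 genes.

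Further members with well-known relatives or roles were deeper in reads or closer to the threshold. ARHGAP5 had 10470 and 2646 reads (-1.78), ARHGAP21 had 161 and 41 (-1.76) and ARHGAP12 had 992 and 321 (-1.42). ECT2, the exchange factor that drives cytokinesis, had 6198 and 1993 (-1.43). ANLN, an actin-binding scaffold of the cytokinetic ring, had the highest read sums of any member, over 7 events (19670 and 5886, -1.53).

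Members were then read against lists of genes with known roles, beside the 2.99% of all genes at the same ratio. The adhesion and matrix lists held 2 members each, and their shares were above that of all genes. ITGA6, the integrin alpha 6 chain that binds laminin, had 18442 and 4526 reads (-1.82), and ALCAM, an adhesion molecule of the immunoglobulin family, had 2509 and 575 (-1.92). They were 2 of 29 adhesion genes (6.90%), whose median was -0.35. The matrix list held 2 members of 20 (10.0%): EFEMP1, a fibulin (883 and 186, -2.04), and LTBP1, which holds latent TGF-beta in the matrix (984 and 289, -1.56). The median of the matrix list was 0.06, above that of all genes. After the fit on GC content and length described further on, the adhesion median was -0.23 and the matrix median -0.09.

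In the TGF-beta and BMP list, 2 of 19 genes were members (10.5%): LTBP1 and TGFBR1, the type I receptor (620 and 157 reads, -1.77). The median of the list was -0.55, and -0.17 after the fit on GC content and length. Of the mesenchymal genes, 3 of 21 were members (14.3%, median -0.51): FSTL1, a secreted follistatin-like protein (4531 and 1121, -1.81), ZEB1, a repressor of epithelial genes (990 and 296, -1.53), and LOX, which cross-links collagen (2898 and 965, -1.38). EHF was the 1 member among 8 epithelial genes (12.5%, median 0.28). A mesenchymal and an epithelial transcription factor were thus both among the members. After the fit the mesenchymal median was -0.52 and the epithelial median -0.03.

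The remaining lists described here held 2 members or fewer. Among receptor tyrosine kinases and ligands these were EPHA4 and MET, the receptor of hepatocyte growth factor (1171 and 372 reads, -1.45), 2 of 26 (7.69%, median -0.22). Among ion channels and calcium transporters they were PKD2 (662 and 217, -1.40) and ATP2B1, a plasma membrane calcium pump (4967 and 1729, -1.31), 2 of 18 (11.1%, median -0.08). NTN4, a netrin, was the member of the guidance list (390 and 126, -1.42), 1 of 17 (5.88%, median -0.29). BUB1, a kinase of the spindle checkpoint, was the member of the replication and mitosis list (3100 and 1049, -1.35), 1 of 33 (3.03%, median -0.12). The interferon and antigen presentation list had 0 of 37 (median 0.30), and the reference genes of most cells had 0 of 26 (median 0.15). After the fit the medians were -0.20 for receptor tyrosine kinases and ligands, -0.14 for ion channels and -0.16 for guidance genes. They were -0.08 for replication and mitosis, 0.18 for interferon and antigen presentation and 0.17 for reference genes. These lists were chosen with results of the same data known, and the counts describe them without a test.

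The events of a member can be read singly, but their reads are the ones summed by the rule, so the counts are a description. Of 207 members, 56 had a single event, whose ratio is the one that chose the gene. Of all 553 events of members, 551 had fewer reads in RBM47 cells. The 2 exceptions were events of CLIP1, with 17 and 20 control reads against 32 and 25 in RBM47 cells. Of 151 members with 2 or more events, 97 had every event at -1.3 or lower, and the range between a gene's events had a median of 0.36 log2 units. The 13 events of LPAR1, a receptor of lysophosphatidic acid, ran from -2.10 to -1.26 (5019 and 1230 reads, -1.82). The 12 events of PPP1R12A, the targeting subunit of myosin phosphatase, ran from -2.21 to -1.27 (4951 and 1205 reads, -1.83). Events of a gene share transcripts and often an exon end, so they are not independent. Events with shared ends can hold the same reads, so the sum of a gene can count a read more than once.

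Reads of the isoforms were also parts of the sum that chose the members, and they are given as a description. In 124 members with at least 50 skipping reads over both groups together, the skipping reads alone had a median of -1.69 and the including reads a median of -1.58, both centred by the median ratio of all reads (-0.21). In AP1S2, an adaptor protein subunit, nearly all reads were skipping reads (426 in control and 98 in RBM47 cells). In FSTL1 nearly all were including reads (4524 and 1119).

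The inclusion rate, the share of including reads with the skipping reads counted for 2 junctions, has a value in every sample. It is not independent of the rule: it comes from the same samples and the same contrast, and lower inclusion lowers the sum that chose the members. The counts below therefore describe the members and support nothing about the choice. The sums can hold other including reads than the rates. In NIN the summed control reads gave 0.966, above each control sample (0.736 to 0.790), and the reason was not tested. Of 552 member events with rates, 272 had a mean rate of at least 0.9 in both groups (49.3%, against 52.6% of the events of other genes) and 112 a mean rate of at most 0.1 (20.3% against 18.9%). The difference in mean rate was under 0.05 in 387 events (70.1% against 80.5%), and the median absolute difference was 0.0170 against 0.0113. By the study's criteria (two-sided Fisher's exact test on the pooled reads, p at most 0.05, a difference of at least 0.2 and at least 10 reads), 22 events of 18 members passed, 13 with lower and 9 with higher inclusion, 3.99% against 1.41% of all events. The p-values and differences were computed again here. The 348 events that passed over all genes are therefore not the study's own count, which is smaller. With rates taken from the summed reads, 14 passed. By limma on the rates of the 6 samples, 7 of 135 member events passed (5.19% against 1.54% of all 5989 tested). All 7 stand in rows whose rates had to be matched again to their event through the printed RBM47 average alone. For these rows no match through both printed averages was recorded, so the printed control average does not back their control rates. Such rows also held 16 of the 22 events, and the rates of RBM47 samples rest on fewer reads by the choice of members. Without the rates of RBM47 replicate 2, 18 events passed the study criteria. Its reads stayed in Fisher's test, because reads are given only as sums over a group.

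In ITGA6 the cassette exon was included at 0.583, 0.597 and 0.563 in the control samples and at 0.258, 0.237 and 0.283 in the RBM47 samples. The groups did not overlap, and inclusion fell by 0.321 (limma, adjusted p = 0.000290). The including reads of this event were 4164 in control and 533 in RBM47 cells, and the skipping reads 1432 and 674. The gene thus had fewer reads of both isoforms and a larger share of the skipped one.

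NAV2, a neuron navigator protein, showed the largest drop among the 7 events. The 45-base exon shown above was included at 0.596, 0.590 and 0.652 in control and at 0.158, 0.143 and 0.125 in RBM47 samples, a change of -0.47 (limma, adjusted p = 0.00901). Its skipping reads were 52 in control and 65 in RBM47 cells, although the gene as a whole had 509 and 151 reads (-1.54). Without control replicate 3 the adjusted p was 0.0572.

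In PLOD2, a lysyl hydroxylase that prepares collagen for cross-linking, 2 events with the same outer ends and the same skipping reads (102 and 111) passed. The rates of the first were 0.709, 0.721 and 0.682 in control and 0.208, 0.250 and 0.333 in RBM47 samples (limma, adjusted p = 0.00200). The second had 0.817, 0.828 and 0.796 against 0.339, 0.349 and 0.442 (limma, adjusted p = 0.000687). Both fell by 0.44, and because they share reads they count as 1 observation. The gene had 2223 control and 559 RBM47 reads (-1.78).

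NIN, the centrosome protein ninein, lost inclusion of an exon of 2139 bases (GRCh37 chr14:51223210-51225348, coding). The rates were 0.790, 0.736 and 0.750 in control and 0.412, 0.161 and 0.302 in RBM47 samples (limma, adjusted p = 0.00401). The RBM47 samples spread widely here (SD 0.126 against 0.0283 in control), yet all lay under the control samples. The summed reads of this event (3124 including and 55 skipping in control, 878 and 101 in RBM47 cells) gave rates of 0.966 and 0.813, a smaller fall that is under the minimum of 0.2. Including sums hold reads beyond the junctions, so here and below rates from sums are not the same measure as rates of samples. The gene had 3432 and 1128 reads (-1.40).

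ARHGAP5 and CLIP1 passed less firmly. For ARHGAP5 the rates were 0.941, 1 and 1 in control and 0.667, 0.8 and 0.833 in RBM47 samples (limma, adjusted p = 0.0204), but only 1 control and 4 RBM47 reads skipped this exon, so the difference rests on very few reads, and the summed reads gave rates of 0.9996 and 0.993. Another event with the same outer ends had 3 and 1 skipping reads. For CLIP1, which tracks the growing ends of microtubules (2886 and 909 reads, -1.46), inclusion was 0.0409, 0.0420 and 0.0581 in control and 0.323, 0.333 and 0.208 in RBM47 samples. This was the 1 event past limma with higher inclusion, by 0.24 (adjusted p = 0.0410). Without RBM47 replicate 2, the sample that stood apart, 5 of the 7 events passed, and ARHGAP5 (limma, adjusted p = 0.0632) and CLIP1 (limma, adjusted p = 0.103) did not. An ANLN exon also had higher rates, 0.0876, 0.0711 and 0.0468 in control against 0.178, 0.260 and 0.219, with a difference of 0.15 that is under the minimum (limma, adjusted p = 0.0164).

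**Figure D3:**
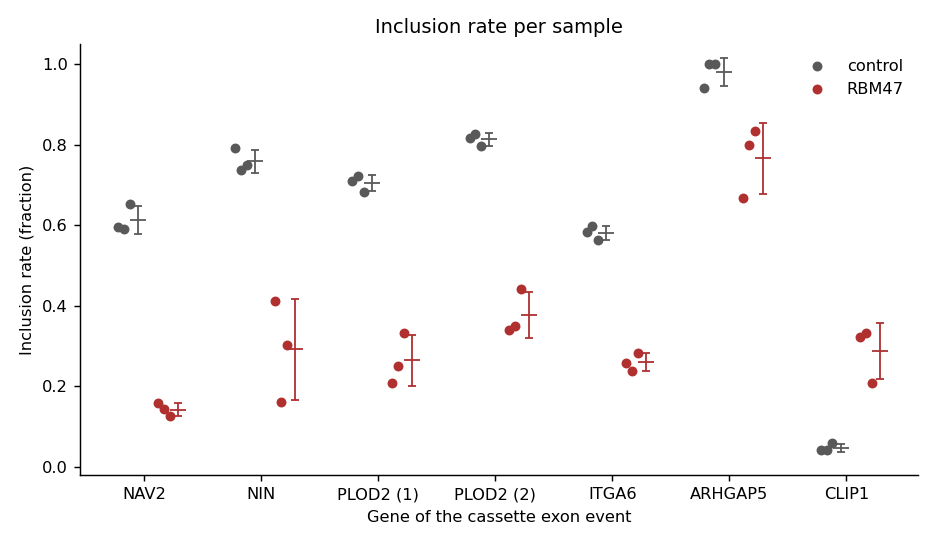
Inclusion rate (fraction, vertical) of the 7 member events past the limma test, in 3 control samples (grey) and 3 RBM47 samples (red), with the mean and SD of each group to the right of its points. Control points lie above the RBM47 points in 6 events and below them in CLIP1, with no overlap, and PLOD2 appears as 2 events with shared outer ends.

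The other events past the study's criteria did not pass limma (adjusted p from 0.1004 to 0.769). The ARHGEF12 exon had rates of 0.356, 0.588 and 0.603 in control and 0.127, 0.0769 and 0.349 in RBM47 samples, and the SUCO exon had 0.908, 0.882 and 0.965 against 0.796, 0.655 and 0.630 (gene reads 951 and 217, -1.92). MALT1, a paracaspase of NF-kappaB signalling, had 0.765, 0.907 and 0.942 against 0.636, 0.467 and 0.789 (gene reads 273 and 72, -1.71). The groups overlapped for MALT1 and not for the other 2. KIF21A, a kinesin, had mean rates of 0.368 in control and 0.111 in RBM47 samples (gene reads 296 and 90, -1.51). Its groups overlapped, with 0.333, 0.538 and 0.231 in control against 0.333, 0 and 0. Lower mean rates also stood beside few skipping reads in POLK (1 and 3), EPHA4 (0 and 2) and USP53 (3 and 8). The groups overlapped in each of these. In EPHA4 the difference rests on RBM47 replicate 2, with a rate of 0.2 against 1 in every other sample. Summed reads gave rates of 0.914 and 0.714 in SUCO and 0.977 and 0.832 in USP53, both less than 0.2 apart. POLK, a polymerase that copies past DNA damage, had 1269 and 431 reads over the gene (-1.35), and USP53 had 388 and 122 (-1.46).

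Higher mean rates were met in 5 further members. LTBP1 went from a mean of 0.509 to 0.762 (rates of 0.390, 0.607 and 0.531 against 0.867, 0.846 and 0.574), MYBL1 from 0.495 to 0.878 and DEPDC1, a mitotic protein, from 0.415 to 0.626 (gene reads 2026 and 675, -1.38). In PPP1R12A a pair of events with the same outer ends went from 0.303 to 0.513 and from 0.485 to 0.696. The samples of the groups overlapped for DEPDC1 and LTBP1. By summed reads the rates were 0.786 and 0.935 in DEPDC1 and 0.520 and 0.707 in LTBP1. The PPP1R12A pair had 0.354 and 0.531, and 0.506 and 0.678. Each of these differences is under the minimum of 0.2. In ADD3, an adducin that caps actin filaments (2248 and 662 reads, -1.55), 3 events passed the study's criteria. The best read of them had rates of 0.263, 0.179 and 0.273 against 0.468, 0.576 and 0.359. Another ADD3 event had 1 including read in control but control rates of 0.565, 1 and 0.667, which that read cannot give. It is counted among the 22 by these rates, and its summed reads (1 including and 14 skipping in control, 5 and 0 in RBM47 cells) gave 0.0345 and 1. The third had rates of 0, 0.00763 and 0 against 0.0588, 1 and 0.0588, so its difference rests on RBM47 replicate 2.

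Of the 9 matched coding exons past a test, 8 had a length that is a multiple of 3 bases, against 110 of 197 other matched member exons (55.8%) and 49.4% of 7219 exons of other genes. The exception was EPHA4. Exons of other genes past a test were not counted apart, so this share is not shown to be particular to members. Member exons as a whole were close in length to others (median 102 and 107 bases) and lower in GC (median 42.0% and 48.2%).

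The members shared a transcript type that the rule did not use. By GENCODE canonical transcripts on GRCh37, matched for 205 members and 6836 of all genes (the 2 members without a match carry microRNA symbols and are counted with no value), members were mostly AT-rich and long. Their median GC content was 39.4% (quartiles 37.2% and 43.1%), against 48.0% (41.8% and 56.3%) in the other genes and 57.0% in the 62 genes at +1.3 or higher. Their median length was 5625 bases against 3173 and 2281. The 3′UTR showed the same order, with median lengths of 2714, 1188 and 391 bases and a GC of 33.9%, 42.5% and 51.1%. Promoters did not follow it: over the 300-base RefSeq windows around the start site (GRCh38), matched for 173 members, GC was 68.0% in members and 65.3% in other genes.

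The gradient ran through all genes. In the decile lowest in GC, 78 of 684 genes were members (11.4%) and the median centred log2 ratio was -0.47, while in the highest decile 4 of 684 were members (0.585%) and the median was 0.28. By length, 0 of 684 genes were members in the shortest decile (median 0.36) and 57 of 684 in the longest (8.33%, median -0.39). Genes both under the median GC and over the median length held 171 of the 205 matched members (8.12% of 2105 genes). Short genes of low GC (1.07%), long genes of high GC (0.915%) and short genes of high GC (0.380%) held few. Across 6836 genes, which are not independent replicates, Spearman's correlation of the ratio was 0.45 with GC content and -0.45 with length. The part of composition and length in the result was not tested.

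**Figure D4:**
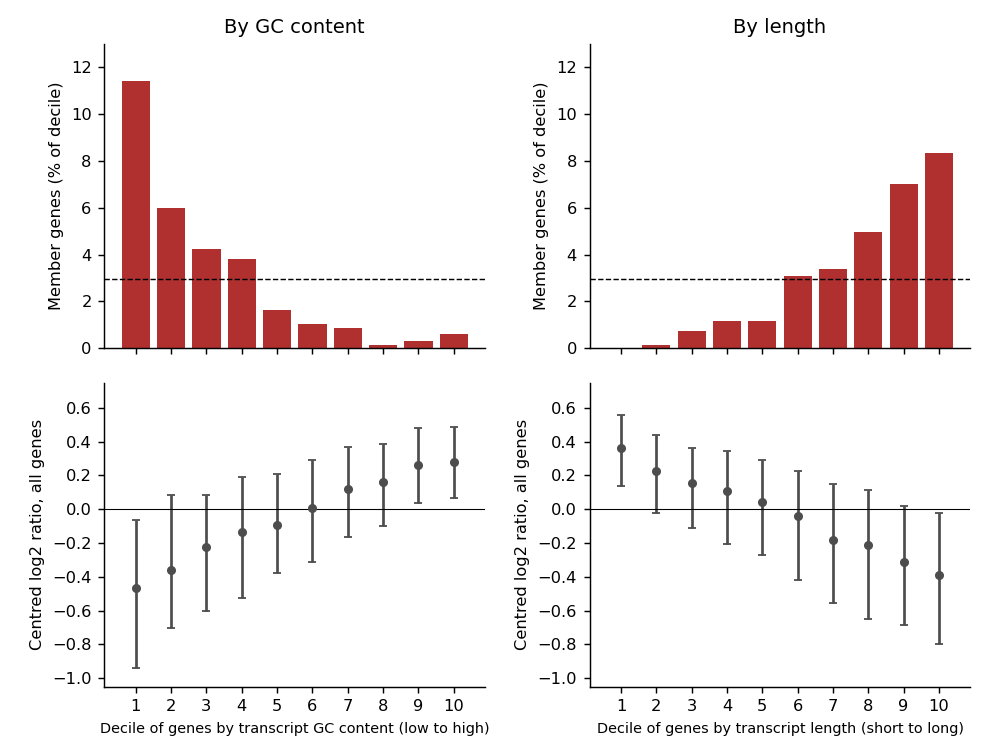
Members as a percentage of each decile of genes (top, bars from 0, dashed line at the share over all genes) and the median centred log2 ratio of all genes in the decile with its quartiles (bottom), by transcript GC content (left) and length (right). Member shares fall from 11.4% to 0.585% with rising GC and climb from 0 to 8.33% with length.

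A quadratic fit of the ratio on GC content and log2 length, chosen after seeing the data, took up 29.9% of its variance over genes. After the fit, 75 members were at -1.3 or lower, and the median of the 205 was -1.17 (2.26-fold lower) in place of -1.57. The members were chosen for low values of the same ratio, so low values after the fit follow in part from that choice. The lowest after the fit were SLCO4A1 (-2.63), EVL (-2.63), FAM105A (-2.44) and EHF (-2.44). Some members went against the common type. SLCO4A1 (61.4% GC, 2716 bases), EVL (57.8%, 1834 bases), SERINC2 (63.0%, 1900 bases) and HSD3B7, an enzyme of bile acid synthesis (61.5%, 2171 bases), are short and GC-rich. SERINC2 had 940 and 263 reads (-1.63), and HSD3B7 had 335 and 97 (-1.58). SERINC2 and HSD3B7 were chosen after their values were seen.

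The position of an exon in its transcript also went with the ratio. The libraries were made from poly(A)-selected RNA. Over 6680 events with a matched exon and at least 100 reads, the median centred log2 ratio was 0.35 for exons nearest to the 3′ end (83 to 805 bases) and -0.45 for those farthest (5854 bases or more). Member exons lay farther from the end than others, with a median of 4302 bases against 2393. Events of members made up 0.150% of the nearest decile of events (1 of 668) and 7.04% of the farthest decile (47 of 668). In 1048 of 1595 genes with events at different distances (65.7%), the farthest event had a lower ratio than the nearest. Among members this held in 25 of 45 (55.6%), a smaller share than over all genes. The part of RNA quality or of position along the transcript was not tested.

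**Figure D5:**
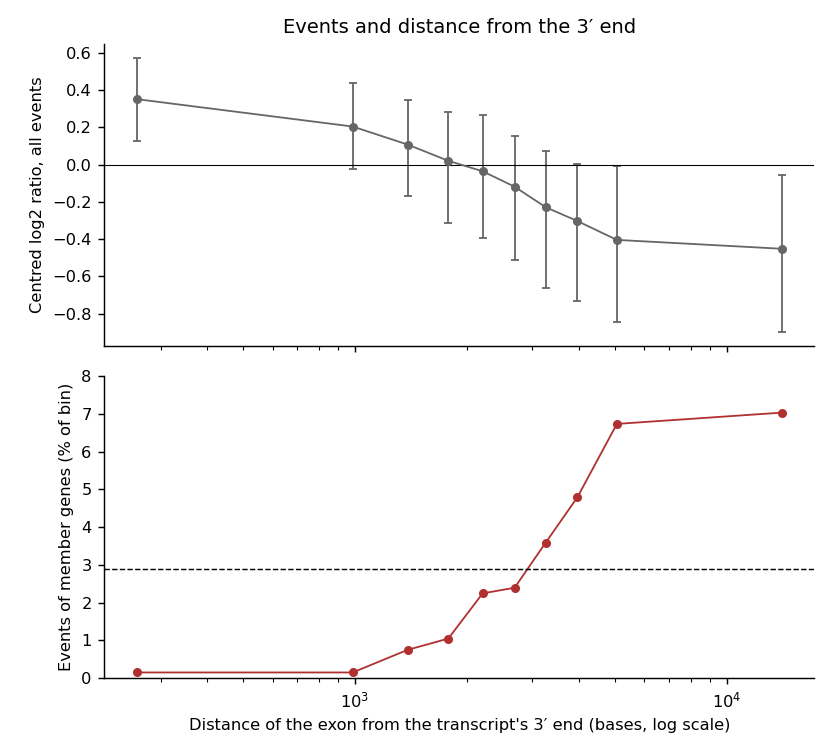
Centred log2 ratio of all single events (top, median with quartiles) and events of members as a percentage of the events in each bin (bottom, dashed line at the share over all bins), against the distance of the exon from the transcript's 3′ end (bases, log scale, points at the geometric mean of each bin's limits), for 10 bins of 668 events. The medians go from 0.35 to -0.45, and the member share goes from 0.150% to 7.04%.

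Members came from 21 of 23 chromosomes. The shares were highest on chromosome 12 (21 of 376 genes, 5.59%), chromosome 2 (26 of 473, 5.50%) and chromosome 4 (13 of 251, 5.18%). Chromosome 17 (2 of 452) and chromosome 19 (2 of 400) held few, and chromosomes 21 (0 of 73) and 22 (0 of 166) none. Median GC followed this order only in part. It was 47.3%, 43.7% and 41.8% on chromosomes 12, 2 and 4 and 53.5%, 59.7% and 56.1% on chromosomes 17, 19 and 22. Chromosome 21, with no member, had 47.5%, close to chromosome 12, and chromosome 13, with the lowest GC (41.0%), held 3 of 126 (2.38%). Copy number of the clone was not analysed here.

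Most members stood alone along the chromosome. In order of start position, with only genes of at least 200 reads kept, 166 members had no member next to them. The other 41 fell into 19 runs of neighbours. Genes left out of this order can lie between neighbours, so a run can span a long distance. The count of neighbours to be met at the share of members over all genes was not worked out, so the runs are a description. The longest runs were DCBLD1, GOPC, HSF2 and SERINC1 on chromosome 6 and E2F7, NAV3 and PPP1R12A on chromosome 12. DCBLD1 had 1281 and 374 reads (-1.57), GOPC 198 and 59 (-1.54), HSF2, a heat shock transcription factor, 295 and 76 (-1.75), and SERINC1 522 and 140 (-1.69). E2F7, an E2F repressor, had 2280 and 764 (-1.37). The other 17 runs were pairs. Among them were DEPDC1 and LRRC40, ARHGAP29 and ABCD3, ZEB1 and ARHGAP12, ZDHHC13 and NAV2, MIR3973 and LDLRAD3, OSBPL8 and ZDHHC17, CASC4 and CTDSPL2, 10-Sep (SEPT10 in the form of a date) and BUB1, ACSL3 and AP1S3, NCEH1 and ECT2, PDS5A and APBB2, LOX and SNCAIP, BMPER and DPY19L1, TACC1 and ADAM9, SMC5 and TMEM2, and MUSK and LPAR1.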

How the data were processed

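RNA was sequenced from 3 control and 3 RBM47 samples after poly(A) selection. The authors mapped reads to cassette exon junctions and deposited 1 table of 24725 events. Each inclusion rate, per sample or averaged over a group, was deposited as a fraction, with including reads divided by the sum of including reads and 2 times skipping reads. The read counts the authors gave per isoform are sums over the 3 samples of a group. The including sums hold reads beyond the junctions. The authors' columns of rate differences, odds ratios and p-values were not used. The labels name TopHat (version not given in the sources used here), and the study's methods name STAR and hg19 for the cell lines. The build of the table's coordinates is not given in the sources used here, so none are printed.

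Exact repeat rows (77) and rows without a symbol (21) were dropped from gene sums. In 1392 of the remaining rows the rates did not average to the printed averages (tolerance 3e-09). Rates were matched again through both averages (1122 rows) or the RBM47 average alone (253), and 17 rows were left without rates. Of the 22 member events past the study criteria, 19 are such rows.

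The rule for members uses group sums, which have no replicates and no test. Inclusion was tested with limma 3.58.1 (R 4.3.3) on arcsine square root rates of 5989 events with a mean of 0.1 to 0.9, with a variance trend on log2 reads, Benjamini-Hochberg adjustment over all of them, calls at an adjusted p below 0.05 with rates at least 0.2 apart, and with Fisher's exact test (scipy 1.17.1). Event ratios had 0.5 reads added. Scripts were tested on simulated data. Transcripts came from GENCODE v44 on GRCh37 by symbol or gene ID. An exon was matched where 1 annotated exon lay between outer ends with the event's span and no other row shared those ends (9064 events). The depth of single samples is unknown. Members, lists and tests were chosen with earlier results of these data known. Named are the 25 lowest members, members in a list, with an event past a test or next to another member, and the 3 genes on each side of the threshold. A gene list and some genes and sequences under this rule are not reported here. Alternatives changed the read minimum, threshold, scaling, isoform, events, rows, transformation and samples.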

Additional observations from a re-analysis of the deposited data

How the results depend on the processing

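The count of 207 members moved by more than 1.5 times with no centring (357), a threshold of -1 (442) or -1.6 (96), and after the fit on GC content and length (77, of which 75 were members before). The other alternatives gave 151 to 290 members. Scaling by total reads gave 254, and with skipping reads only 207 genes passed, of which 90 were members. Of 619 values of 46 named genes under these alternatives, 1 changed sign: ATP13A3 was at 0.0015 by skipping reads only, centred by the median of skipping reads rather than of all reads. The cause was not tested.

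Member events past the study criteria (22) were 34 with a difference of at least 0.1, 8 with at least 0.3, 14 with rates from summed reads and 3 in rows with matching averages only. Leaving out the rates of each sample, with its reads kept in Fisher's test, gave 16 to 23. Events past limma (7) were 4 with no variance trend, and in rows with matching averages only 0 of 110 passed, with 3 at an unadjusted p under 0.05. Leaving out each sample gave 4 to 7, the lowest without control replicate 3, where NAV2, ARHGAP5 and CLIP1 did not pass. With the replicate number as a block 6 passed, with CLIP1 lost. Deviations of same-numbered samples had r of -0.022, -0.0034 and 0.014 over events, so the numbers did not pair the samples. Depth limits events with few skipping reads.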
